A study of Drosophila melanogaster with 6 samples.

Results

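Glycolysis, glycogen, trehalose, pentose phosphate and sugar uptake genes were followed in dissected *Drosophila* hindguts with and without oncogenic Ras. The 32 genes were taken by name from a list of enzymes and transporters that was chosen with earlier results of these data known. All 32 were found among the 17617 genes listed, 2 of them (*GlyP* and *GlyS*) under the synonyms *Glyp* and *Glys*. RNA came from 6 libraries of pooled hindguts, 3 for each of 2 genotypes, from adult females reared at 18°C and kept at 29°C for 7 days. Control flies carried byn-G4 tub-G80ts U-gfp, in which the brachyenteron (*byn*) driver gives GFP in hindgut enterocytes once the heat-sensitive Gal4 repressor Gal80 stops acting at the higher temperature. RasV12 flies carried the same 3 transgenes and U-RasV12, a constitutively active Ras, under the same driver. The samples were labelled as intestine with the cell type given as enterocytes and muscle, so each library held the epithelium in which the driver acts together with the muscle around it.

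Glycolysis breaks glucose down to pyruvate in the cytosol. Pyruvate then either enters the mitochondrion, where the pyruvate dehydrogenase complex turns it into acetyl-CoA, or is reduced to lactate by lactate dehydrogenase. Insects carry sugar in the hemolymph mainly as trehalose, which is made in the fat body, enters cells through trehalose transporters and is split into glucose by trehalase. Glycogen is the stored form, and the pentose phosphate pathway takes glucose-6-phosphate to make NADPH and ribose.

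The libraries were made with a protocol that reads the 3′ end of polyadenylated transcripts. The values are normalized counts, taken here as read counts multiplied by 1 factor per library and rounded. Library totals ranged from 932389 to 1031380 normalized counts. The factors, estimated here from the integers that occur, correspond to 686569, 1048807 and 755970 reads in Control and 1402435, 988982 and 1401332 in RasV12. By these estimates Control replicates 1 and 3 were read less deeply than any RasV12 library, which limits low values and zeros in Control. Correlations of log2 values over the tested genes were 0.83 to 0.92 within a genotype and 0.76 to 0.81 between genotypes. Genes above a value of 9 in at least 1 library were tested with limma on log2(normalized count + 1), which understates the change of low genes, and 7155 genes passed, all 32 members among them. A gene was called at an adjusted p under 0.05, two-sided, with Benjamini-Hochberg adjustment over all 7155 genes. The p-values measure the spread between these 6 libraries. *Ras85D*, the fly Ras gene, held 55, 48 and 54 normalized counts in Control against 85, 96 and 105 in RasV12 (limma adjusted p = 0.0455). Whether a read of the transgene counts toward *Ras85D* was not tested.

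Lactate dehydrogenase was the member called higher, 11.8-fold, and the trehalose transporter *Tret1-1* was called lower. These 2 calls held with each library left out. Both hexokinases, pyruvate kinase, glycogen phosphorylase and a PEP carboxykinase were also called lower, but near the threshold. Each of these lost the call with most single libraries left out. None of the 9 genes between the hexokinases and pyruvate kinase passed the test. Of the 32 members 7 were called (limma), or 21.9%, where 16.7% of all tested genes were called. The 1 member called higher was *Ldh*, against 9.04% of all genes. The 6 called lower were *Tret1-1*, *Hex-A*, *Hex-C*, *PyK*, *Pepck1* and *GlyP*, 18.8% of the members against 7.7% of all genes. With 1 library left out the number called lower ranged from 1 to 8. The 3 values of each genotype did not overlap for 13 members, 3 of them higher in RasV12 (*Ldh*, *Treh* and *Pgd*) and 10 lower, where 17.7% and 15.3% of all genes did so in the same directions. The median log2 fold change of the members was -0.40, beside 0.02 over all genes tested, and 20 of the 32 were below 0.

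**Figure D1:**
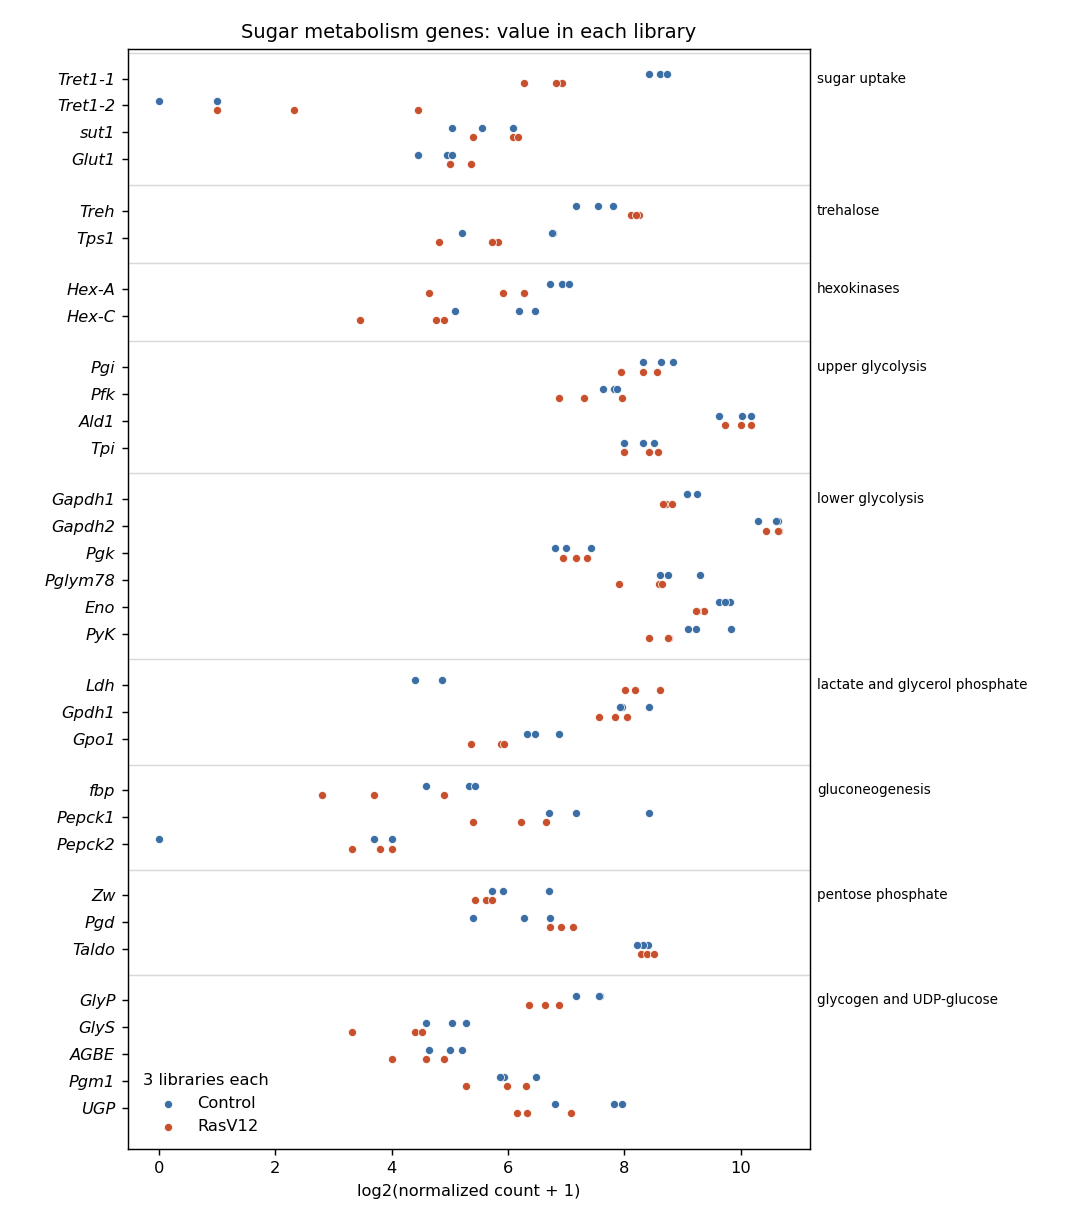
Value of each of the 32 sugar metabolism genes in each of the 6 libraries, grouped by step, on a log2(normalized count + 1) axis. Blue points are the 3 Control libraries and red points the 3 RasV12 libraries. The red points of *Ldh*, at 258 to 388, lie far right of its blue points at 20 to 28, while those of *Tret1-1*, at 76 to 120, lie left of its blue points at 343 to 422.

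The *Drosophila* gene for lactate dehydrogenase, *Ldh*, makes the enzyme that reduces pyruvate to lactate and returns NAD+ to glycolysis. It lies on chromosome 3L from 6259105 to 6262694 on the minus strand of dm6 and overlaps no other annotated gene. The Control libraries held 20, 28 and 28 normalized counts of *Ldh* and the RasV12 libraries 258, 388 and 290. Every RasV12 library was far above every Control library, and the means were 25.3 ± 4.62 and 312 ± 67.7 (SD, n = 3 each). The log2 fold change was 3.57 (SE 0.28, 95% interval 2.96 to 4.17), with a limma adjusted p of 1.98e-06. By adjusted p *Ldh* stood at rank 26 of the 7155 genes, and by the size of the rise at rank 77. *Ldh* was called under each of the 10 other settings of the analysis and with each library left out, with log2 fold changes of 3.38 to 3.69.

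*Ldh* shares its substrate with the mitochondrial route, of which 3 genes were called lower. They were in a second list of sugar metabolism genes that holds no member. *Pdha*, the E1 alpha subunit of pyruvate dehydrogenase, held 389, 308 and 268 normalized counts in Control against 127, 77 and 82 in RasV12. The genotypes did not overlap, and the log2 fold change was -1.76 (SE 0.27, limma adjusted p = 0.000541). *Pdhb*, the E1 beta subunit, fell from 339, 332 and 388 to 179, 239 and 181 normalized counts, a log2 fold change of -0.83 (limma adjusted p = 0.0224). The E2 subunit of the complex, encoded by *muc*, fell from 233, 176 and 215 to 112, 109 and 109, a log2 fold change of -0.90 (limma adjusted p = 0.0188). The call of *Pdhb* was lost without Control replicate 2 or RasV12 replicate 1 or 3, with an adjusted p up to 0.076, and that of *muc* without Control replicate 1 or RasV12 replicate 2 or 3, up to 0.0694. The adjusted p of *Pdha* was at most 0.00639 with any library left out.

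Of the mitochondrial pyruvate carrier, which brings pyruvate to that complex, no gene passed the test. *Mpc1* held 150, 135 and 142 normalized counts in Control against 72, 110 and 100 in RasV12 (log2 fold change -0.61, limma adjusted p = 0.127). The ranges of *Mpc1* did not overlap, and neither did those of *CG9396*, at 9 to 14 against 2 to 4 (adjusted p = 0.0625). As *CG9396* was above 9 only in Control libraries, it was tested through the group where it was high. *CG9399* overlapped, with 133 to 229 in Control and 79 to 141 in RasV12. These 6 genes of the complex and the carrier belong to the second list's group for glycolysis and pyruvate entry, listed with earlier results known. Of the 9 tested genes of that group 3 were called lower and none higher by limma, where 7.7% and 9.04% of all genes were. At an unadjusted p under 0.05 there were 5 lower, *CG9396* among them, where 14.0% of all genes were lower and 16.0% higher. Limma-voom called 3 lower, where it called 7.1% of all genes lower and 7.0% higher. The kinase *Pdk* and the phosphatase *Pdp*, which switch the complex off and on, had log2 fold changes of -0.45 and -0.78 and were not called (limma adjusted p = 0.281 and 0.222).

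**Figure D2:**
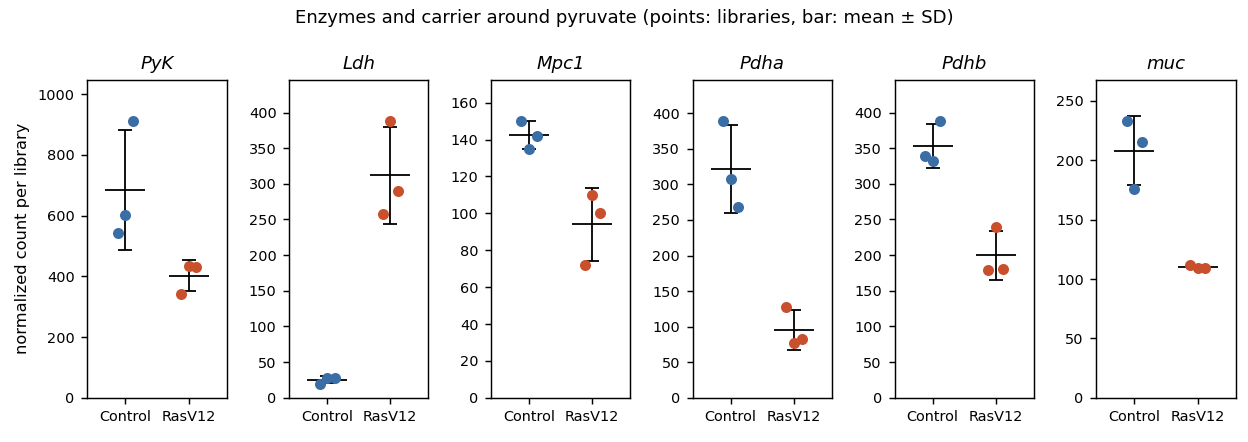
Normalized counts, on axes that start at 0, of pyruvate kinase (*PyK*), lactate dehydrogenase (*Ldh*), a pyruvate carrier subunit (*Mpc1*) and 3 pyruvate dehydrogenase subunits (*Pdha*, *Pdhb*, *muc*) in each library. Points are libraries, and the bar and whiskers are the mean and SD of 3. *Ldh* is the gene of these 6 whose RasV12 libraries, at 258 to 388, lie above its Control libraries, at 20 to 28.

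Of 4 sugar uptake genes 1 was called, and the other 3 had log2 fold changes above 0. *Tret1-1*, a facilitative trehalose transporter, held 389, 422 and 343 normalized counts in Control against 120, 76 and 112 in RasV12. All RasV12 libraries were below all Control libraries, with means of 384.7 ± 39.7 and 102.7 ± 23.4 (SD, n = 3 each). The log2 fold change was -1.92 (SE 0.25, 95% interval -2.45 to -1.38, limma adjusted p = 0.000165), and the gene was called under all 10 other settings and with each library left out. Its neighbour on chromosome arm 2R, *Tret1-2*, is a similar gene with few reads, at 1, 1 and 0 in Control and 4, 21 and 1 in RasV12 (limma adjusted p = 0.238). The genotypes overlapped, and 1 library, RasV12 replicate 2, held most of the *Tret1-2* reads. How reads of these similar sequences were divided is not given in the sources used here, and the 3′ ends of both overlap *Roc2* on the other strand, which makes both less certain.

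The hexose transporters among the members were at low values. The sugar transporter gene *sut1* held 32 to 67 normalized counts in Control and 41 to 71 in RasV12, with a log2 fold change of 0.32 (limma adjusted p = 0.583). *Glut1*, the fly homologue of the mammalian glucose transporter of that name, held 30, 21 and 32 in Control and 40, 31 and 40 in RasV12. Its log2 fold change was 0.42 with a 95% interval of -0.32 to 1.16 (limma adjusted p = 0.451).

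Trehalase, encoded by *Treh*, which splits trehalose into glucose, held 186, 222 and 143 normalized counts in Control against 304, 275 and 294 in RasV12. Every RasV12 library was above every Control library, but the log2 fold change of 0.68 (95% interval 0.18 to 1.19) did not pass the test (limma adjusted p = 0.0627). *Treh* shares its 3′ end with *Rbpn-5* on the other strand. *Tps1*, the trehalose-6-phosphate synthase, makes trehalose and is known mainly from the fat body. It held 108, 107 and 36 normalized counts in Control against 27, 56 and 52 in RasV12, with Control replicate 3 inside the RasV12 range. Its log2 fold change of -0.79 was not called (limma adjusted p = 0.243), and without Control replicate 3 it was -1.31 with an adjusted p of 0.0157. *Tps1* shares its 3′ end with *CG3652* on the other strand, which held 53, 25 and 60 in Control and 54, 57 and 42 in RasV12.

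Both hexokinases, which phosphorylate glucose on entry into the cell, fell. *Hex-A*, on chromosome X from 9585675 to 9589813, held 105, 121 and 131 normalized counts in Control against 59, 76 and 24 in RasV12. All 3 RasV12 libraries were below the Control libraries, by a log2 fold change of -1.30 (SE 0.38, limma adjusted p = 0.0312). Without RasV12 replicate 3, the lowest library, the log2 fold change of *Hex-A* was -0.81 and the adjusted p 0.109, and the call was also lost without RasV12 replicate 1 and without Control replicate 1 or 2. *Hex-A* was called under 8 of the 10 other settings, as was *Hex-C*.

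*Hex-C*, known from the fat body, held 72, 87 and 33 normalized counts in Control against 26, 10 and 29 in RasV12. Its ranges came within 4 normalized counts of each other at Control replicate 3 and RasV12 replicate 3. The log2 fold change was -1.54 (SE 0.46, limma adjusted p = 0.0366), and the adjusted p reached 0.16 without RasV12 replicate 2 and 0.00388 without Control replicate 3. The call was also lost without RasV12 replicate 1 and without Control replicate 1 or 2, and *Hex-C* overlaps *CG8079* on the other strand at its 3′ end.

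From glucose-6-phosphate to pyruvate, the common trunk of glycolysis, limma called 1 of 10 genes, where it called 16.7% of all genes. The 10 genes from *Pgi* to *PyK* summed to 5611, 5959 and 6729 normalized counts in Control against 4858, 5598 and 5408 in RasV12, a ratio of means of 0.867. The sums of the genotypes did not overlap, and the median log2 fold change of the 10 genes was -0.36. The gene called was *PyK*, lower in RasV12, where 7.7% of all genes were called lower. At an unadjusted p under 0.05 there were 2, both lower, where 14.0% of all genes were lower. Limma-voom also called 1, lower, where it called 7.1% of all genes lower.

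In the upper part of glycolysis, where glucose-6-phosphate is turned into triose phosphates, none of 4 genes was called by limma or by limma-voom. None of the 4 had an unadjusted p under 0.05, and limma called 16.7% of all genes. *Pgi*, the glucose-6-phosphate isomerase, held 320 to 458 normalized counts in Control and 244 to 377 in RasV12 (log2 fold change -0.33, limma adjusted p = 0.389). *Pfk*, the phosphofructokinase that commits sugar to glycolysis, held 197, 224 and 233 in Control and 116, 157 and 249 in RasV12. RasV12 replicate 3 was the highest of the 6 libraries for *Pfk* and RasV12 replicate 1 the lowest, and the log2 fold change of -0.39 had a 95% interval of -0.996 to 0.21. The aldolase *Ald1*, at 786 to 1154 normalized counts in Control and 848 to 1150 in RasV12, and the triose phosphate isomerase *Tpi*, at 253 to 363 and 253 to 380, had log2 fold changes of 0.03 and 0.06. These signs turned below 0 when libraries were scaled by their totals alone or fitted with limma-voom, and the 95% intervals were -0.43 to 0.49 for *Ald1* and -0.45 to 0.57 for *Tpi*.

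The lower part of glycolysis, which yields ATP, held 6 genes. Limma called 1 of these lower and none higher, where it called 7.7% and 9.04% of all genes. The 2 glyceraldehyde-3-phosphate dehydrogenase genes differed in their values. *Gapdh1* held 609, 540 and 537 normalized counts in Control against 421, 403 and 449 in RasV12, without overlap, yet its log2 fold change of -0.40 was not called (limma adjusted p = 0.187). *Gapdh2* held 1258, 1597 and 1565 in Control and 1387, 1616 and 1593 in RasV12, a log2 fold change of 0.06 that was just below 0 under scaling by totals or limma-voom. The log2 ratio of *Gapdh2* to *Gapdh1* within a library, which the library's scaling does not touch, was 1.05, 1.56 and 1.54 in Control and 1.72, 2.00 and 1.82 in RasV12. The ranges of the ratio did not overlap, with a mean difference of 0.46 (exact two-sided permutation p = 0.1, the smallest that 3 against 3 libraries allow, and 0.3 when adjusted over 6 such ratios). The 2 genes are similar in sequence, and how reads that match both were counted is not given in the sources used here.

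*Pgk*, the phosphoglycerate kinase, held 111 to 171 normalized counts in Control and 122 to 162 in RasV12 (log2 fold change 0.08, limma adjusted p = 0.879). *Pglym78*, the phosphoglycerate mutase, held 430, 389 and 628 in Control and 240, 386 and 401 in RasV12, with a log2 fold change of -0.50 (limma adjusted p = 0.222). RasV12 replicate 3, at 401, lay just above the lowest Control library, at 389. The enolase *Eno* held 902, 791 and 847 normalized counts in Control against 662, 609 and 597 in RasV12. Its genotypes did not overlap and its log2 fold change of -0.44 had an interval below 0 (-0.85 to -0.03), but the adjusted p over all genes was 0.135 (limma).

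Pyruvate kinase, *PyK*, on chromosome 3R from 22367536 to 22372746, closes the pathway by making pyruvate and ATP. It held 542, 602 and 911 normalized counts in Control against 343, 434 and 430 in RasV12. No RasV12 library reached the Control range, which Control replicate 3 stretched upward, and the log2 fold change was -0.74 (SE 0.24, limma adjusted p = 0.0477). The call stood just inside the threshold. Without Control replicate 1 the adjusted p of *PyK* was 0.0405, and with any other library left out (Control replicate 2 or 3, RasV12 replicate 1, 2 or 3) the call was lost, with log2 fold changes down to -0.51 and adjusted p up to 0.15. *PyK* was called under 6 of the 10 other settings, with an adjusted p of up to 0.191 in the rest.

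**Figure D3:**
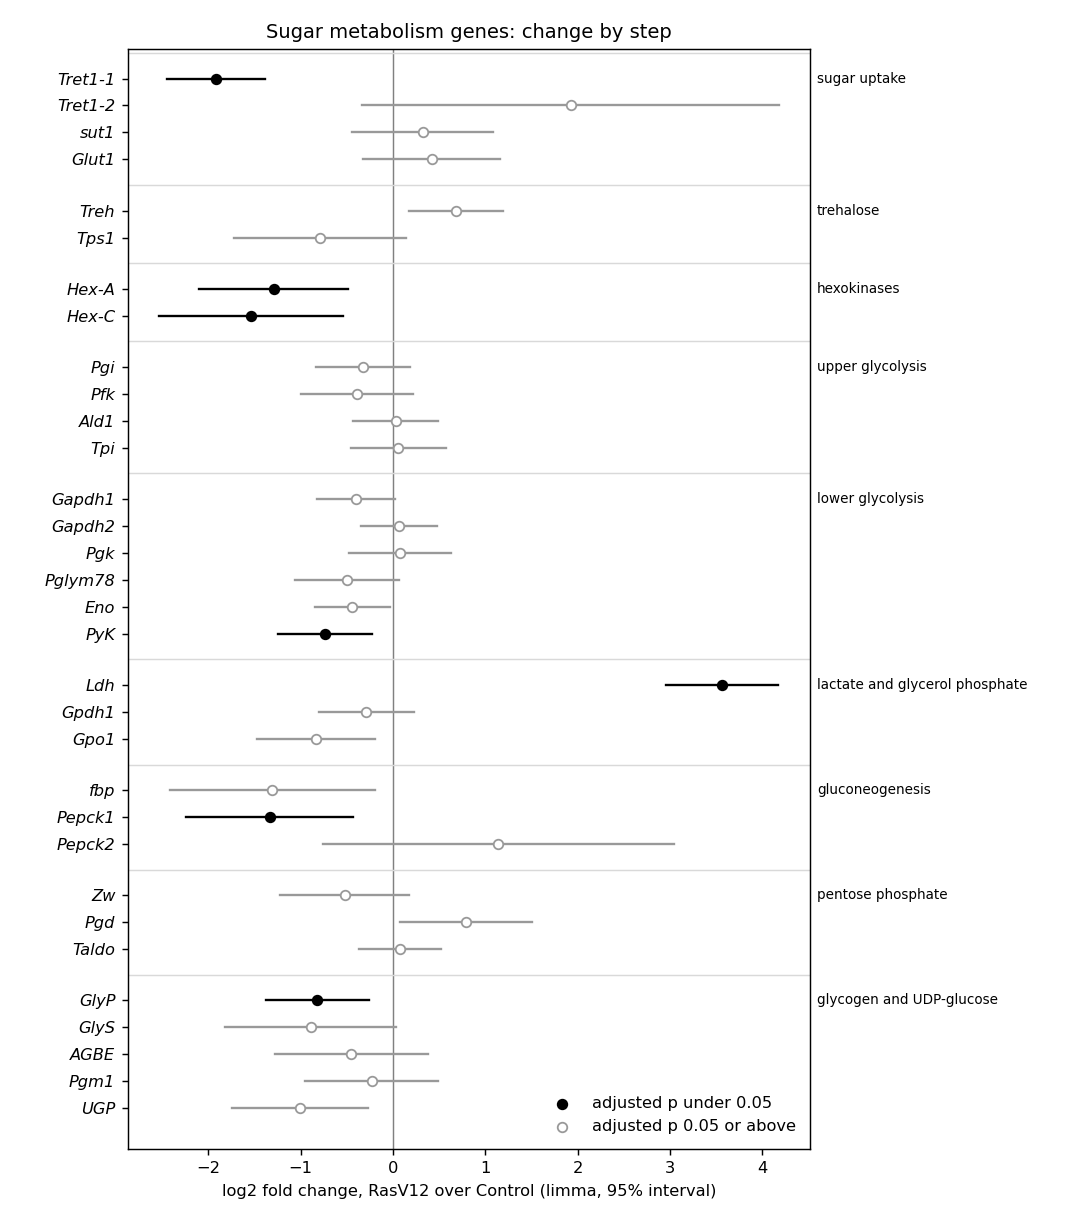
Log2 fold change of each member, RasV12 over Control, by step, with its 95% interval from limma. Filled black points are called at an adjusted p under 0.05 and open points are not. *Ldh* is the black point on the right, at 3.57, and the 6 on the left lie between -1.92 (*Tret1-1*) and -0.74 (*PyK*).

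Besides lactate, NAD+ is regained through the glycerol phosphate shuttle, which insect muscle uses heavily. *Gpdh1*, the cytosolic glycerol-3-phosphate dehydrogenase, held 247, 344 and 241 normalized counts in Control against 228, 187 and 263 in RasV12, with overlapping ranges and a log2 fold change of -0.29 (limma adjusted p = 0.457). *Gpo1*, its mitochondrial partner, held 117, 87 and 79 in Control and 58, 60 and 40 in RasV12. All RasV12 libraries were below all Control libraries for *Gpo1*, and its log2 fold change of -0.83 was not called (limma adjusted p = 0.0729). *Gyk*, a glycerol kinase of the second list, held 25 to 56 normalized counts in Control and 11 to 39 in RasV12 (log2 fold change -1.12, limma adjusted p = 0.137).

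Gluconeogenesis runs glycolysis backward through enzymes of its own, and these were low or uneven. The fructose-1,6-bisphosphatase gene *fbp*, which opposes *Pfk*, held 39, 42 and 23 normalized counts in Control against 12, 6 and 29 in RasV12. RasV12 replicate 3 lay inside the Control range, and the log2 fold change of -1.31 was not called (limma adjusted p = 0.104). Without that library it was -1.86 with an adjusted p of 0.0322, and without Control replicate 3 it was -1.57 with an adjusted p of 0.0475. The log2 ratio of *fbp* to *Pfk* within a library differed by -0.92 between genotypes (exact two-sided permutation p = 0.3, adjusted 0.45).

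*Pepck1*, a PEP carboxykinase, held 143, 342 and 103 normalized counts in Control against 100, 41 and 74 in RasV12. The ranges did not overlap but came within 3 normalized counts, and Control replicate 2 stood far above the other Control libraries. Its log2 fold change was -1.34 (SE 0.42, limma adjusted p = 0.0446). With 1 library left out it remained called only without Control replicate 3 (adjusted p = 0.00405) and was at a log2 fold change of -0.84 without Control replicate 2 (adjusted p = 0.19) and of -0.99 without RasV12 replicate 2 (adjusted p = 0.197). It was called under 3 of the 10 other settings, and limma-voom did not call it. In the annotation *CG45087* has the same span and strand, and its values, at 143, 350 and 104 against 100, 41 and 75, were within 8 normalized counts of those of *Pepck1* in every library, so the reads of these 2 genes cannot be told apart. *Pepck2*, the neighbouring gene for a similar enzyme, held 15, 12 and 0 in Control and 9, 13 and 15 in RasV12. Its log2 fold change of 1.14 (limma adjusted p = 0.42) rested on the library at 0, Control replicate 3, without which it was -0.14.

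The pentose phosphate pathway had no member called by limma or limma-voom, with 1 at an unadjusted p under 0.05. *Zw*, the glucose-6-phosphate dehydrogenase that opens the pathway, held 103, 52 and 59 normalized counts in Control against 42, 48 and 52 in RasV12 (log2 fold change -0.52, limma adjusted p = 0.305). *Pgd*, the 6-phosphogluconate dehydrogenase of the next NADPH step, held 41, 104 and 76 in Control and 105, 119 and 138 in RasV12. The ranges of *Pgd* were 1 normalized count apart, at a log2 fold change of 0.79 (limma adjusted p = 0.126), and *Pgd* shares its 3′ end with *bcn92* on the other strand. *Taldo*, the transaldolase of the branch that returns sugar to glycolysis, overlapped between genotypes, at 298 to 336 normalized counts in Control and 311 to 363 in RasV12. Its log2 fold change of 0.08 had a 95% interval of -0.36 to 0.52. In the second list none of the 4 further genes of this pathway was called by limma or limma-voom, and none had an unadjusted p under 0.05.

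The 5 genes that build and break glycogen and make UDP-glucose all had log2 fold changes below 0, with a median of -0.82, and 1 was called. *GlyP*, the glycogen phosphorylase that releases glucose-1-phosphate from glycogen, lies on chromosome 2L from 2130813 to 2137296. It held 191, 189 and 143 normalized counts in Control against 117, 81 and 98 in RasV12. All RasV12 libraries were below all Control libraries, at a log2 fold change of -0.82 (SE 0.26, 95% interval -1.37 to -0.26, limma adjusted p = 0.0442). The call of *GlyP* held without Control replicate 3 (adjusted p = 0.0255) and was lost with any other library left out, at Control replicate 1 or 2 and at RasV12 replicate 1, 2 or 3, with adjusted p up to 0.171, and *GlyP* was called under 7 of the 10 other settings.

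The glycogen synthase gene *GlyS* held 38, 32 and 23 normalized counts in Control against 9, 20 and 22 in RasV12. The ranges of *GlyS* met within 1 normalized count, and its log2 fold change of -0.89 was not called (limma adjusted p = 0.184). The log2 ratio of *GlyS* to *GlyP* within a library was -2.47 ± 0.15 in Control and -2.54 ± 0.88 in RasV12 (SD, n = 3 each), a difference of -0.07 (exact two-sided permutation p = 1.0). *AGBE*, the branching enzyme, held 24 to 36 normalized counts in Control and 15 to 29 in RasV12, and *Pgm1*, the phosphoglucomutase between glucose-1-phosphate and glucose-6-phosphate, held 57 to 88 and 38 to 78. Their log2 fold changes were -0.45 and -0.23 (limma adjusted p = 0.466 and 0.687).

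*UGP*, the UTP-glucose-1-phosphate uridylyltransferase that makes UDP-glucose for glycogen and for trehalose, held 247, 224 and 111 normalized counts in Control against 79, 70 and 135 in RasV12. Replicate 3 of each genotype crossed into the other genotype's range. The log2 fold change of -1.01 just missed the threshold (limma adjusted p = 0.0608), and it was -1.36 without Control replicate 3 (adjusted p = 0.00415) and -1.29 without RasV12 replicate 3 (adjusted p = 0.0343). *UGP* shares its 3′ end with *PGRP-LF* on the other strand. *Gyg*, the glycogenin of the second list that primes a glycogen chain, fell from 208, 257 and 150 to 129, 68 and 121 normalized counts (log2 fold change -0.97, limma adjusted p = 0.0444). The call of *Gyg* held without Control replicate 3 and was lost with any other library left out, with an adjusted p up to 0.198. Of the 6 tested glycogen genes in that list all had log2 fold changes below 0, and *Gyg* was the only 1 called.

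The second list held 96 further sugar metabolism genes, of which 17 were at 0 in every library and 61 were tested. Limma called 8 higher and 12 lower, 32.8% of those tested where 16.7% of all genes were called, and the median log2 fold change was -0.44. Without RasV12 replicate 2 the number called was 8, and with each other library left out in turn it was 11 to 19. Of the 20 genes, 5 were called with each library left out, among them *Pdha*, *CG31100*, *MFS3* and *nst*, and the other 15 lost the call without at least 1 library, where their largest adjusted p was between 0.0512 and 0.198. These genes, like the members, were listed with earlier results of these data known.

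Of 9 tested genes listed under hexose transport in the second list, 3 were called higher and 1 lower, where 9.04% and 7.7% of all genes were. *CG31100*, a predicted sugar transporter, held 25, 25 and 36 normalized counts in Control against 273, 246 and 185 in RasV12, with no overlap and a log2 fold change of 2.99 (SE 0.29, limma adjusted p = 1.37e-05). The 1 called lower was *MFS3*, a transporter of the major facilitator family for which transport of hexoses was not shown here. It fell from 325, 369 and 311 to 112, 85 and 78 normalized counts (log2 fold change -1.87, limma adjusted p = 0.000152). The transporters *nebu* and *sut2* were called higher, at log2 fold changes of 0.98 and 2.15, and *sut2* was low, at 1 to 7 against 16 to 25. As *sut2* was above 9 only in RasV12 libraries, it was tested through the group where it was high, and it is 1 of the 3 called higher. Limma-voom called 1 gene of this group higher and 1 lower, where it called 7.0% and 7.1% of all genes. Calls of *CG31100* and *MFS3* held with each library left out. The call of *nebu* held in 1 of 6 such fits and that of *sut2* in 2, with limma adjusted p up to 0.109 and 0.135.

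Of 6 tested genes for hexosamines and nucleotide sugars, 2 were called higher and none lower, where 9.04% and 7.7% of all genes were. The genes *nst* and *mmy*, which act on the way to UDP-N-acetylglucosamine, the precursor of chitin and of protein glycans, had log2 fold changes of 2.19 and 0.90 (limma adjusted p = 0.00227 and 0.0418). With 1 library left out, the call of *mmy* held in 1 of 6 fits, with a limma adjusted p up to 0.138 in the rest. *Galk*, the galactokinase at the head of galactose use, fell from 76, 96 and 51 to 36, 29 and 28 (log2 fold change -1.20, limma adjusted p = 0.0244). Its call held in 2 of 6 such fits, with an adjusted p up to 0.104.

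Trehalose phosphatase genes and digestive sugar enzymes fell where they were called. *CG5171* and *CG5177*, annotated as trehalose-6-phosphate phosphatases, had log2 fold changes of -1.0 and -0.88 (limma adjusted p = 0.0432 and 0.045). With 1 library left out, the call of *CG5177* was lost every time (limma adjusted p = 0.0703 to 0.126). That of *CG5171* held in 1 of 6 such fits, with an adjusted p up to 0.143 in the rest. The maltases *Mal-A5* and *Mal-B2*, which split disaccharides, had log2 fold changes of -1.77 and -1.51 (limma adjusted p = 0.0468 and 0.0102).

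Of 10 tested regulators of sugar metabolism genes 4 were called, 2 higher and 2 lower, where 9.04% and 7.7% of all genes were. *Hph*, the prolyl hydroxylase that marks the hypoxia factor Sima for breakdown, held 89, 100 and 91 normalized counts in Control against 147, 261 and 220 in RasV12 (log2 fold change 1.12, limma adjusted p = 0.0114). The genotypes did not overlap for *Hph*, and its adjusted p was 0.0774 without RasV12 replicate 2. The activin-like ligand gene *daw* was also higher, at a log2 fold change of 1.75, and *foxo*, the transcription factor restrained by insulin signalling, was lower, at -1.50 (limma adjusted p = 0.0136 and 0.0193). The juvenile hormone receptor gene *gce* was lower, at -1.88 (limma adjusted p = 0.0119). With 1 library left out, *daw*, *foxo* and *gce* were called in 4, 3 and 5 of 6 fits. Their limma adjusted p reached 0.0723, 0.0871 and 0.0577. *ERR*, the estrogen-related receptor known in fly larvae to drive glycolytic genes and *Ldh*, held 9 to 24 normalized counts in Control and 11 to 15 in RasV12 and was not called (adjusted p = 0.622). The hypoxia factor genes *sima* and *tgo* were not called either, at 12 to 32 and 10 to 31 normalized counts over the 6 libraries, nor was *Myc*, whose RasV12 libraries ran from 90 to 356 around the Control values of 108 to 158 (limma adjusted p = 0.423).

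Cell type markers moved with genotype beside these results. The defining hindgut genes *byn*, *otp* and *fkh* were detected in every library, and the 6 hindgut markers summed to 766 to 1063 normalized counts in Control and 534 to 639 in RasV12, with *byn*, *otp* and *fkh* called lower and *drm* higher. The 15 sarcomere genes summed to 14075 to 15639 in Control and 5470 to 6365 in RasV12, and 14 of the 15 were called lower, the exception being *bt*. In bulk RNA fewer cells of a type and less RNA per cell cannot be told apart. The 10 fat body markers summed to 5377, 10435 and 3945 in Control and 2711, 2104 and 4120 in RasV12. Of these markers 4 were tested, and *Yp1* and *Yp2* were called lower. Most of the sum was RNA of the yolk protein genes *Yp1*, *Yp2* and *Yp3*, at Control means of 3097, 2330 and 938 in 6586. *Fbp1*, *Fbp2* and *Obp99b* were at 0 in every library, and *Lsp2*, *Lsp1beta* and *AkhR* at 8 or less. The sum therefore mainly followed yolk protein RNA. Of the 10 hemocyte markers, at 40 to 82 against 9 to 14 in sum, *NimC1* and *eater* were at 0 and 1 of 2 tested was called lower. That gene was *Col4a1*, which was above 9 only in Control libraries and so was tested through the group where it was high. The collagen genes *Col4a1* and *vkg* made up most of the sum, at Control means of 41.3 and 11.7 in 60.3. The hemocyte gene *Hml* held 0 in every Control library and 1 in every RasV12 library. The 9 trachea markers were split. Their sums were 134 to 147 in Control and 259 to 303 in RasV12, with *pio*, *btl*, *uif* and *Cht2* called higher. *Cht2*, at 1, 1 and 0 in Control, was above 9 only in RasV12 libraries and so was tested through the group where it was high. The other 4 of the 8 tested had log2 fold changes below 0 and were not called, *Gasp* at -1.46 (32, 32 and 17 against 14, 6 and 8, limma adjusted p = 0.0501). The tracheal identity gene *trh* held 0, 3 and 3 against 0 in every RasV12 library. Sums of midgut enzymes (10 genes, 13 to 132 against 104 to 202) and Malpighian tubule (9 genes, 52 to 90 against 57 to 67) overlapped with no gene called.

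Some values stood with these sums, and were picked out after they had been seen. Control replicate 2, which held the highest fat body sum, also held the highest value of *Pepck1* (342) and of *Hex-C* (87), and Control replicate 3, with the lowest fat body sum of the Control libraries, held their lowest values for *Tps1* (36), *Hex-C* (33), *UGP* (111) and *Pepck1* (103). RasV12 replicate 3, with the highest fat body sum of its genotype, held its highest values for *Hex-C* (29), *fbp* (29) and *UGP* (135). Other values did not follow the sum. The highest RasV12 value of *Pepck1* (100) was in replicate 1, and that of *Tps1* (56) in replicate 2, with the lowest sum (2104). In Control, *Tps1* (108) and *UGP* (247) were highest in replicate 1. The sarcomere sum fell to 0.401 of its Control mean, beside ratios of means of 0.267 for *Tret1-1*, 0.445 for *Hex-A*, 0.566 for *GlyP* and 0.587 for *PyK*. The part of muscle and fat body RNA in these falls was not tested. Where *Ldh* was higher in RasV12, the sarcomere and hemocyte sums were lower. The fat body sums overlapped between genotypes, at 3945 to 10435 in Control and 2104 to 4120 in RasV12. Of the trachea markers 4 rose as *Ldh* did and 4 tested ones did not. The part of any of these cell types in the rise of *Ldh* was not tested.

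**Figure D4:**
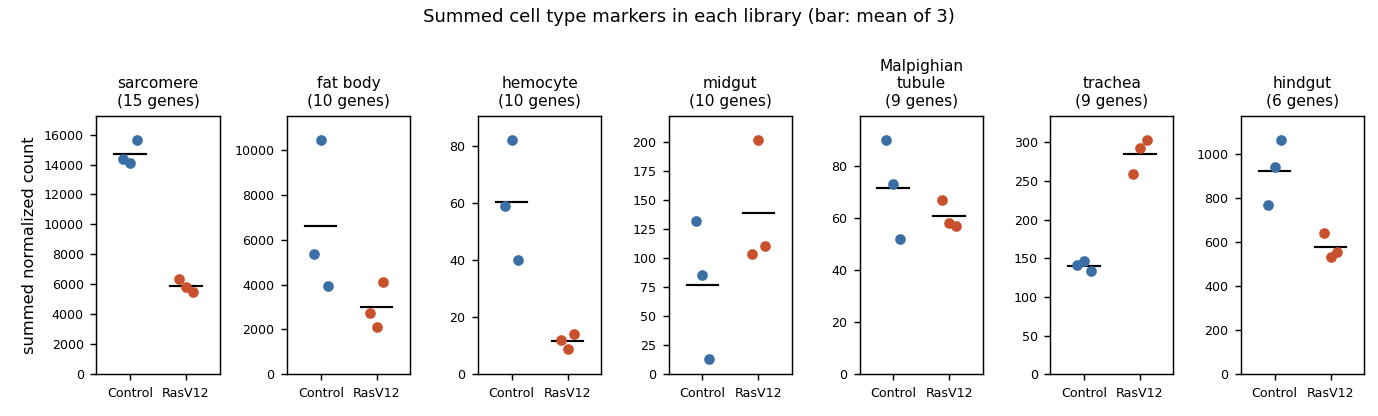
Summed normalized counts of 7 lists of cell type markers in each library, on axes that start at 0. Blue points are Control and red points RasV12 libraries, and the bar is the mean of 3. The sarcomere sums, at 14075 to 15639 in Control and 5470 to 6365 in RasV12, do not overlap. For the fat body markers, mostly yolk protein genes by value, 1 Control library reaches 10435.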

How the data were processed

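RNA from dissected hindguts of 2 genotypes, with 3 libraries each, was prepared with the QuantSeq 3′ protocol and sequenced on an Ion Proton. The authors aligned reads to dm6 with hisat2, passed unmapped reads to bowtie2 and tested genotypes through metaseqR2, run in its utr mode with DESeq. Tool versions, the use of strand and the handling of reads that match several genes are not given in the sources used here. Each deposited value is a signal, here called the normalized count. It was taken here as reads per gene scaled by 1 factor per library and rounded, so no count model was run. The factors were estimated here from the integers that occur, as the authors' exact normalization is not given in the sources used here. Low values are coarse in the libraries with estimated factors above 1 (Control replicates 1 and 3 at 1.41 and 1.34, RasV12 replicate 2 at 1.02).

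The 32 members, the second list of sugar metabolism genes and the marker lists were chosen with earlier results of these data known. Of 101 names in the second list 96 genes were found, 3 names were not found and 2 were repeats under another name. All members were named, with up to 4 called genes of each group in the second list, and any other gene of that list was named after its values were seen. 1 gene of that list is counted but not reported here. Gene names and positions came from the Ensembl 115 annotation, which matched 17520 of the 17617 identifiers. The 3′ ends of *Zw*, *Pgk*, *Pglym78* and *Pgm1* also lie at or near a gene on the other strand.

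Tests covered genes with 1 or more libraries above 9, which is the median value of the 11086 genes that had reads. Fits used limma 3.58.1 in R 4.3.3 (lmFit and eBayes with a variance trend) on log2(value + 1) with the authors' scaling kept and genotype as the only term. Ratios of 6 enzyme pairs within a library were compared by exact permutation. Alternatives were pseudocounts of 0.5 and 5, no filter, a value of at least 10 in at least 3 libraries, scaling by totals, median-of-ratios or upper quartile, no variance trend, limma-voom, the replicate number as a block, and each library left out. Procedures were tested on simulated data. Tables and plots were made with Python 3.11.15, pandas 2.3.3, numpy 2.4.6, scipy 1.17.1 and matplotlib 3.10.9.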

Additional observations from a re-analysis of the deposited data

How the results depend on the processing

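The calls of *Ldh* and *Tret1-1* held under all 10 settings and with each library left out. The other 5 members called lower lay near the threshold. The number of members called lower, 6, was 1 with no filter on low values, 1 with no variance trend and 3 with the replicate block, and with 1 library left out it ranged from 1 (without Control replicate 2 or RasV12 replicate 1) to 8 (without Control replicate 3). Calls in the second list, 20, were 9 with no variance trend and 8 to 19 with 1 library left out. Over all genes, 1198 calls became 704 with no variance trend and 642 to 1292 with 1 library left out. The same-numbered libraries of the genotypes deviated together at correlations of -0.05, 0.00 and -0.01, and not every library correlated best with its own number, so the replicate numbers were not taken as pairs.

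Log2 fold changes near 0 changed sign. Scaling by totals and limma-voom gave -0.033 and -0.035 for *Ald1*, -0.0028 and -0.0043 for *Tpi*, and -0.0015 in both for *Gapdh2*. With 1 library left out, ranges were -0.13 to 0.15 for *Ald1*, -0.082 to 0.23 for *Tpi*, -0.049 to 0.13 for *Gapdh2*, -0.057 to 0.25 for *Pgk*, -0.14 to 1.86 for *Pepck2* and -0.46 to 0.052 for *Pgm1*. The difference in the ratio of *GlyS* to *GlyP* was 0.048 with a pseudocount of 5 and -0.36 to 0.43 with 1 library left out, and that of *Hex-C* to *Hex-A* -0.99 to 0.54. The cause of these moves was not tested. With 3 libraries per genotype, the low values of *Tret1-2*, *Pepck2*, *fbp*, *GlyS*, *AGBE* and *Hex-C* limit what differences can be seen, and a gene that was not called is not shown to be the same in both genotypes.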
